A study of Mus musculus with 24 samples.

Results

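Expression of 10 genes of the antioxidant programme was followed through 6 groups of differentiating muscle cells: Slc7a11, Hmox1, Nqo1, Gclc, Gclm, Txnrd1, Srxn1, Gsr, Prdx1 and Sqstm1. They were chosen by name as targets of the transcription factor NRF2 in glutathione, thioredoxin and heme metabolism, with earlier results of these data known. All 10 were among the 14693 genes of the count table, and all 10 passed the filter on low counts that kept 12994 genes for testing. The cells were C2C12, a mouse myoblast line labelled wild type, grown in 10% fetal bovine serum and moved to 2% horse serum to differentiate. During differentiation they received vehicle, 100 µM linoleic acid (LA, a polyunsaturated fatty acid of the omega-6 series) carried on bovine serum albumin, or recombinant mouse ANGPTL4 protein at 10 ng/mL. Cells were taken at day 2 or day 6, with 4 libraries in each group. The labels did not say what the vehicle held, or whether the 4 libraries of a group came from separate cultures, so p-values measure the spread between these libraries, which may be technical.

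NRF2, encoded by Nfe2l2, is held in the cytoplasm and sent for degradation by KEAP1. Oxidants and electrophiles, including products of lipid peroxidation, modify KEAP1, and NRF2 then enters the nucleus and binds antioxidant response elements with a small MAF protein. BACH1 occupies the same elements and represses them. The targets supply cystine and glutathione, keep glutathione and thioredoxin reduced, and break down heme. Several of them answer to other factors too, and Slc7a11 is also a target of ATF4, the factor of the amino acid response.

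Promoter sequences are shown for the 4 genes in which the core letters of such an element were found, because these are letters that NRF2 or ATF4 and their partners are known to bind. Of the 10 genes, 7 had an entry in RefSeq's table for GRCm38.p6, with 9 start sites in all. Hmox1, Gclc and Gsr had none. Only the 250 bases before each start were read, on both strands. The antioxidant response element core was searched as TGACNNNGC, which 3338 of all 32851 promoter windows of this length hold (10.16%). The core shared by C/EBP and ATF factors was searched as TGATGNAA, which 1134 of them hold (3.452%). Capitals mark the matches, and each sequence runs 5′ to 3′ on the gene's strand.
Slc7a11, chr3:50443614-50443863, strand -: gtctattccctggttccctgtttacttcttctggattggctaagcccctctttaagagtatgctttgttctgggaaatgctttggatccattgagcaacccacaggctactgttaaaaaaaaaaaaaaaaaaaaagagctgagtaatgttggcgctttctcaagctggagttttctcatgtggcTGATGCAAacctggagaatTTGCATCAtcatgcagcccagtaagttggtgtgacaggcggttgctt
Gclm, chr3:122245307-122245556, strand +: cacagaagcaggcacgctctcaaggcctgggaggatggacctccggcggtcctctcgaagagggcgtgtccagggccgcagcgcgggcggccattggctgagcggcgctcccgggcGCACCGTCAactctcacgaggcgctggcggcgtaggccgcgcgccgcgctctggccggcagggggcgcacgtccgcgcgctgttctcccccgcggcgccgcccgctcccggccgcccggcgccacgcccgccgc
Txnrd1, chr10:82858956-82859205, strand +: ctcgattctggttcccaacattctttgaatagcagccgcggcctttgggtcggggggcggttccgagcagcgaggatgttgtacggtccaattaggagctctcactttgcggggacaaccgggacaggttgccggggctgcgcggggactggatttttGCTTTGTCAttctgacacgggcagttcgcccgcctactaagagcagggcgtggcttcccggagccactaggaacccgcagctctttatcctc
Prdx1, chr4:116685349-116685598, strand +: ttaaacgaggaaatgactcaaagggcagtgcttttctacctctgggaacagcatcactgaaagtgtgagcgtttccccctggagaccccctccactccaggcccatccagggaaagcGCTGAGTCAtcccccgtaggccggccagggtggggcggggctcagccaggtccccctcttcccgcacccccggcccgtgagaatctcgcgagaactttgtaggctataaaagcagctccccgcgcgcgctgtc
The Slc7a11 window held the C/EBP-ATF core at 2 places on opposite strands, 66 to 59 and 47 to 40 bases before the start. The antioxidant core lay 134 to 126 bases before the start in Gclm, 92 to 84 in the second of 3 listed starts of Txnrd1, and 133 to 125 in Prdx1, each time on the opposite strand. A match describes letters and not a site in use.

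Transcripts were measured by 3′ end sequencing. Values are in CPM, a gene's counts divided by its library's scaled total and put on the same base in every library, and because they are not per transcript length they are compared here between groups for the same gene only. Library totals ran from 6.101 to 25.05 M counts, and the ANGPTL4 libraries of day 6 had the lowest mean (7.66 ± 1.22 M against 11.3 ± 1.44 with vehicle, SD, n = 4, 2-sided exact permutation p = 0.0286, 0.114 after adjustment over 4 such tests). An LA library of day 2 (replicate 3) and an ANGPTL4 library of day 6 (replicate 1) stood apart from their groups on the second principal component. Muscle genes were expressed: all 10 myogenic marker genes were measured, with a summed level of 9403 to 13802 CPM over the libraries of the 6 groups. Myf6 among them was near the floor (0.897 CPM on average with vehicle at day 2). Of 10 fibroblast markers 8 were measured and summed to 8001 to 14980 CPM, so these sums do not set the kind of cell. As a check of the LA labels, Angptl4, a known target of the PPAR family of fatty acid receptors, was at 20.2 ± 1.79 CPM with vehicle and 81.7 ± 1.32 with LA at day 2, and at 20.8 ± 0.759 and 284.6 ± 22.8 at day 6. The added ANGPTL4 protein is not seen in a transcript count.

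**Figure D1:**
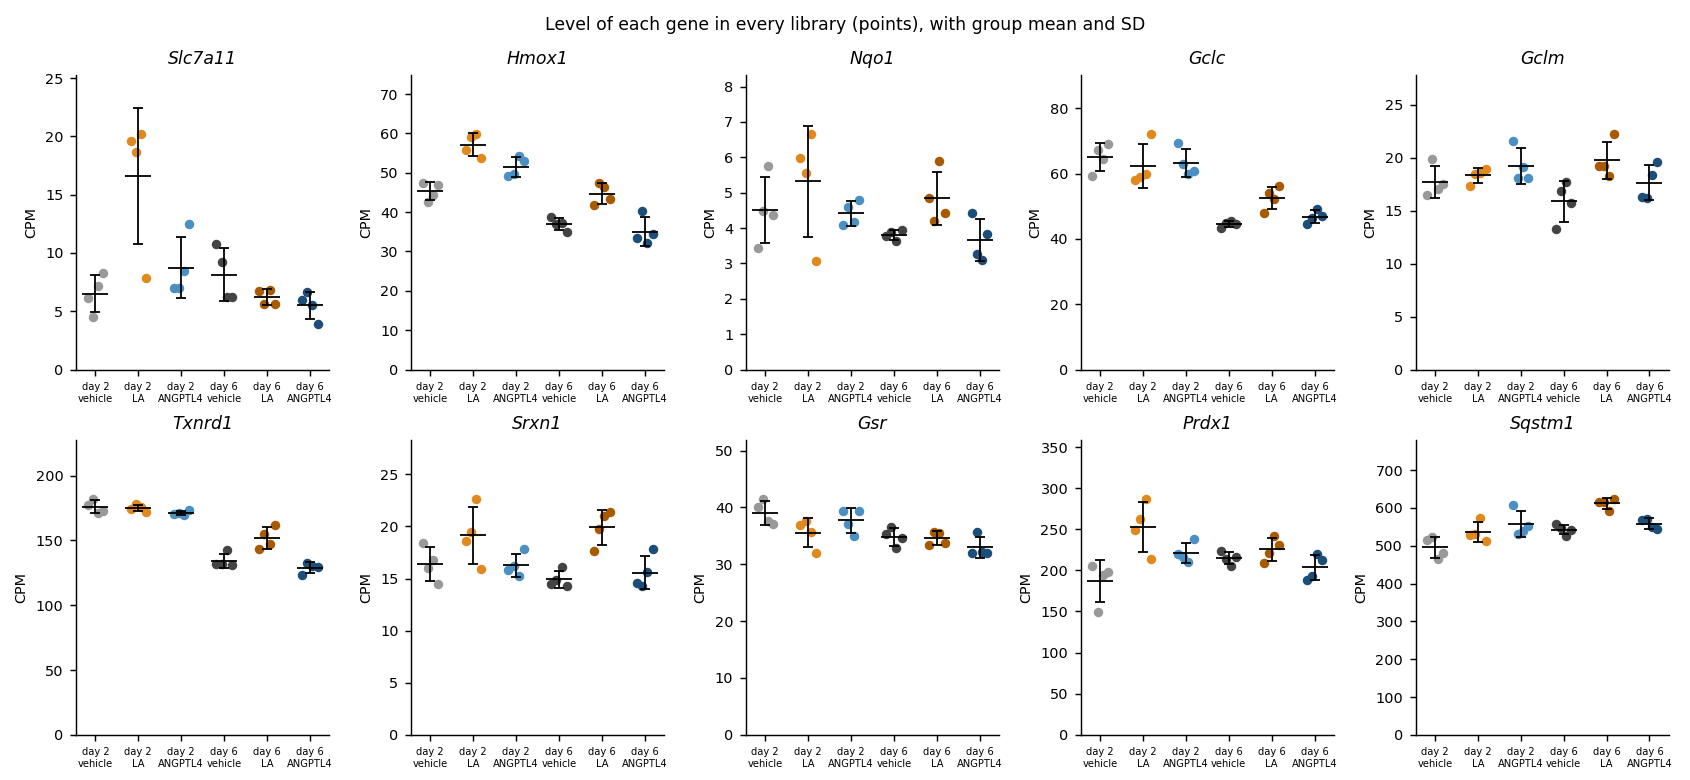
Level of each of the 10 genes in CPM (vertical axis, from 0) in the 24 libraries, by group (horizontal axis). Points are libraries and bars show the group mean and SD (n = 4). Slc7a11 is highest in 3 of the 4 LA libraries of day 2, and Srxn1, Gclm, Sqstm1 and Hmox1 are higher with LA than with vehicle in every library of day 6.

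At day 2 of LA treatment 3 of the 10 genes rose and none fell: Slc7a11, which imports cystine for glutathione synthesis, Prdx1, a peroxidase that uses thioredoxin, and Hmox1, which degrades heme. A gene was called at an adjusted p under 0.05 in edgeR's quasi-likelihood test, with adjustment over all 12994 genes. Among all genes 8.27% were called higher and 6.82% lower. Pairs of libraries and overlaps between groups, given below, were not counted over all genes, so they only describe the values. The median log2 fold change (log2FC) of the 10 genes was 0.18, beside 0.0054 over all genes tested.

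Slc7a11 stood at 6.101, 4.55, 7.15 and 8.25 CPM in the vehicle libraries of day 2 and at 19.6, 18.7, 20.2 and 7.87 CPM in the LA libraries. The first 3 LA libraries lay far above all vehicle libraries, and replicate 4 lay within the vehicle range. The fitted rise was 2.69-fold (log2FC 1.43, SE 0.256, adjusted p = 0.00225), and LA was higher in 15 of 16 pairs of libraries. The coefficient of variation over the 4 LA libraries was 35.3%, the highest of any gene and group here.

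Prdx1 stood at 205.0, 148.8, 194.1 and 198.6 CPM with vehicle and at 248.5, 262.4, 287.0 and 213.3 CPM with LA. All LA libraries lay above all vehicle libraries, with replicate 4 again the lowest of the LA group. The log2FC was 0.44 (SE 0.084, adjusted p = 0.00214). Prdx1 may share reads with near-identical copies elsewhere in the genome, and the counting settings were not given in the sources used here, so its value carries that doubt.

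Hmox1 stood at 47.5, 42.5, 44.4 and 46.9 CPM with vehicle and at 55.8, 59.1, 59.96 and 53.7 CPM with LA. The groups did not overlap. The log2FC was 0.34 (SE 0.061, adjusted p = 0.00104), a rise of 26.4% that was smaller than that of Slc7a11 and varied less from library to library.

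The other 7 genes were not called at day 2. Srxn1, which restores overoxidised peroxiredoxins, had a log2FC of 0.25 (adjusted p = 0.0645), and Nqo1, a quinone reductase, had 0.32 (adjusted p = 0.175). Nqo1 was counted only 23 to 170 times in a library, which limits what can be detected. Sqstm1, the autophagy receptor p62 that also binds KEAP1, had 0.11 (adjusted p = 0.110). The enzymes that make and recycle glutathione were near or below their vehicle level: Gclc and Gclm, the catalytic and modifier subunits of glutamate-cysteine ligase, had log2FC of -0.07 and 0.04, and Gsr, glutathione reductase, had -0.13 (adjusted p = 0.143). Txnrd1, which reduces thioredoxin, was at 176 ± 5.00 CPM with vehicle and 175 ± 2.41 with LA.

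The calls of 2 genes ended when only the compared groups were fitted, with adjusted p of 0.0567 for Slc7a11 and 0.0576 for Prdx1, where 1 of the 10 genes was called. Without LA replicate 4, 5 genes were called, and Nqo1 (log2FC 0.44, adjusted p = 0.0228) and Srxn1 (0.30, adjusted p = 0.0193) were the added ones. Without the 2 libraries that stood apart, 3 genes were called, as with all libraries.

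Genes of the cytosolic ribosome moved beside Slc7a11 and Prdx1. Of 77 ribosomal protein genes tested, 58 were called higher with LA at day 2, beside 8.27% of all genes. At day 6 none was called by edgeR, DESeq2 or limma-voom, and none had an unadjusted p under 0.05 in edgeR. Their share of counts was 2.37, 2.45, 2.75 and 1.75% in the 4 LA libraries of day 2 and 1.42 to 1.80% in the vehicle libraries of that day. Replicate 4 of LA, the library in which Slc7a11 was 7.87 CPM, was thus within the vehicle range. The ANGPTL4 libraries of day 2 held 1.90 to 2.24%, with the highest value in replicate 4, which also had the highest Slc7a11 of its group (12.5 CPM) and the highest Prdx1 (238.4 CPM). All day 6 libraries held 1.49 to 1.78%. Hmox1 in LA replicate 4 was 53.7 CPM, above every vehicle library and the lowest of the LA group. After removal of each group's mean, Pearson's r of log2 CPM with the mean of the ribosomal protein genes was 0.46 for Hmox1. It was 0.88 for Slc7a11 and 0.74 for Prdx1, and the other members ran from -0.59 (Gclc) to 0.57 (Nqo1). The 3 LA libraries of day 2 with the higher share were also the deeper ones, with 17.4 to 25.05 M counts against 9.55 M in replicate 4. The calls of Slc7a11, Prdx1 and Hmox1 remained when all libraries were thinned to the smallest total. Thinning evens the number of counts but keeps each library's proportions, so it cannot address differences in proportions that go with depth. What part depth or this shared movement has in the results of the 10 genes was not tested.

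**Figure D2:**
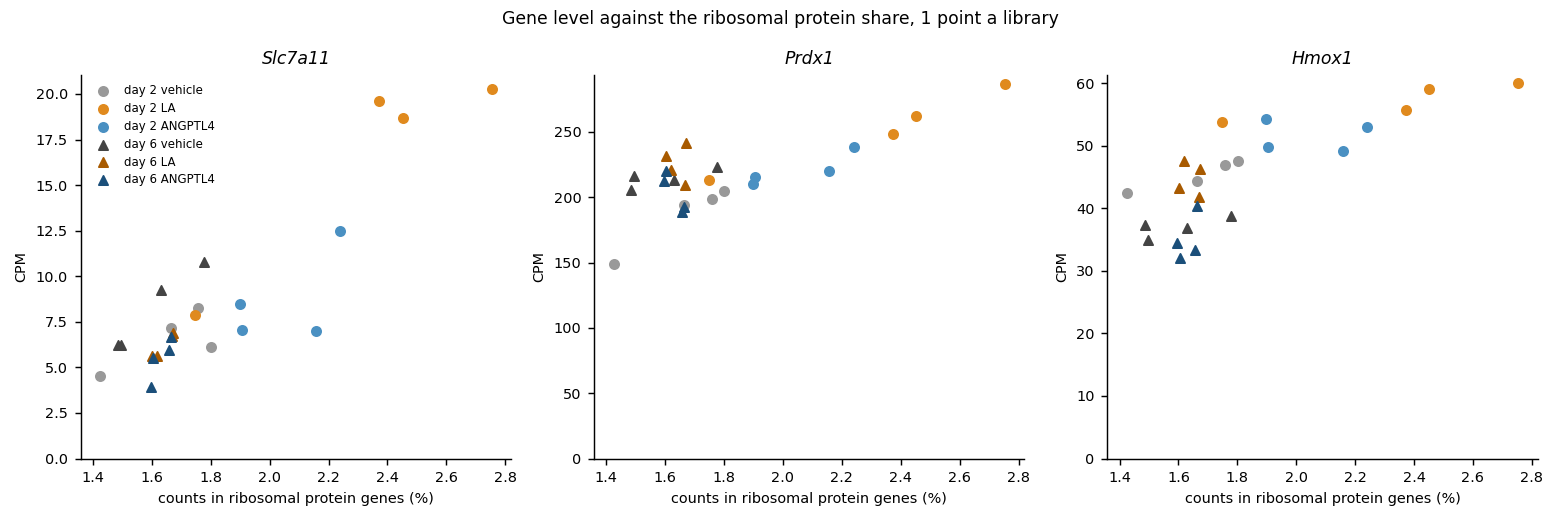
Level of Slc7a11, Prdx1 and Hmox1 in CPM (vertical axis, from 0) against the percentage of counts in ribosomal protein genes (horizontal axis), 1 point for each of 24 libraries, coloured by group. In the first panel 3 LA libraries of day 2 lie at 2.37 to 2.75% with 18.7 to 20.2 CPM of Slc7a11, and the other LA library of that day lies at 1.75% and 7.87 CPM.

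At day 6 of LA treatment, 6 of the 10 genes were called higher and none lower: Hmox1, both subunits of glutamate-cysteine ligase, Txnrd1, Srxn1 and Sqstm1. Each was higher in all 16 pairs of libraries, but the share of all genes with such a separation was not counted. Among all genes 7.83% were called higher and 9.38% lower. The median log2FC of the 10 genes was 0.20, beside -0.0096 over all genes.

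Srxn1 had the largest of the called changes. It stood at 14.5, 14.9, 16.1 and 14.3 CPM with vehicle and at 17.6, 19.7, 21.0 and 21.4 CPM with LA, with every LA library above every vehicle library. The log2FC was 0.40 (SE 0.099, adjusted p = 0.00345).

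Transcripts of both subunits of glutamate-cysteine ligase, the rate-limiting enzyme of glutathione synthesis, rose. Gclc stood at 43.5, 44.9, 45.6 and 44.7 CPM with vehicle and at 48.1, 54.0, 52.2 and 56.1 CPM with LA (log2FC 0.23, SE 0.068, adjusted p = 0.0157). Gclm stood at 13.3, 16.8, 17.7 and 15.7 CPM with vehicle and at 19.2, 19.2, 18.3 and 22.3 CPM with LA (log2FC 0.32, SE 0.093, adjusted p = 0.0153). Neither gene's groups overlapped, but for Gclm the gap between them was narrow. The Gclm call ended without vehicle replicate 1 (adjusted p = 0.0945), without LA replicate 4 (0.0759) and when all libraries were thinned to the smallest total (0.212), and the Gclc call ended without LA replicate 4 (0.0617).

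Txnrd1 stood at 132, 132, 142.5 and 131 CPM with vehicle and at 143.0, 155, 147 and 162 CPM with LA. The highest vehicle library, replicate 3, lay just under the lowest LA library. The log2FC was 0.17 (SE 0.044, adjusted p = 0.00517). Hmox1 stood at 38.8, 36.9, 37.3 and 34.9 CPM with vehicle and at 41.7, 47.5, 46.3 and 43.2 CPM with LA, without overlap (log2FC 0.27, SE 0.066, adjusted p = 0.00360). Hmox1 was the only one of the 10 genes called higher with LA at both days.

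Sqstm1 stood at 557, 547, 526 and 541 CPM with vehicle and at 615, 616, 591 and 624 CPM with LA. All LA libraries were higher, and the spread within each group was small (SD 12.9 and 14.1 CPM). The log2FC was 0.17 (SE 0.048, adjusted p = 0.0100).

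The other 4 genes were not called at day 6. Nqo1 was higher in all 16 pairs (4.84, 4.20, 5.88 and 4.43 CPM with LA against 3.77, 3.89, 3.64 and 3.94 with vehicle), but its log2FC of 0.34 had an adjusted p of 0.231. Prdx1 had a log2FC of 0.07 and Gsr of -0.01. Slc7a11 stood at 6.70, 5.63, 6.87 and 5.61 CPM with LA and at 10.8, 9.27, 6.23 and 6.23 CPM with vehicle, so the groups overlapped (log2FC -0.39, adjusted p = 0.445).

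**Figure D3:**
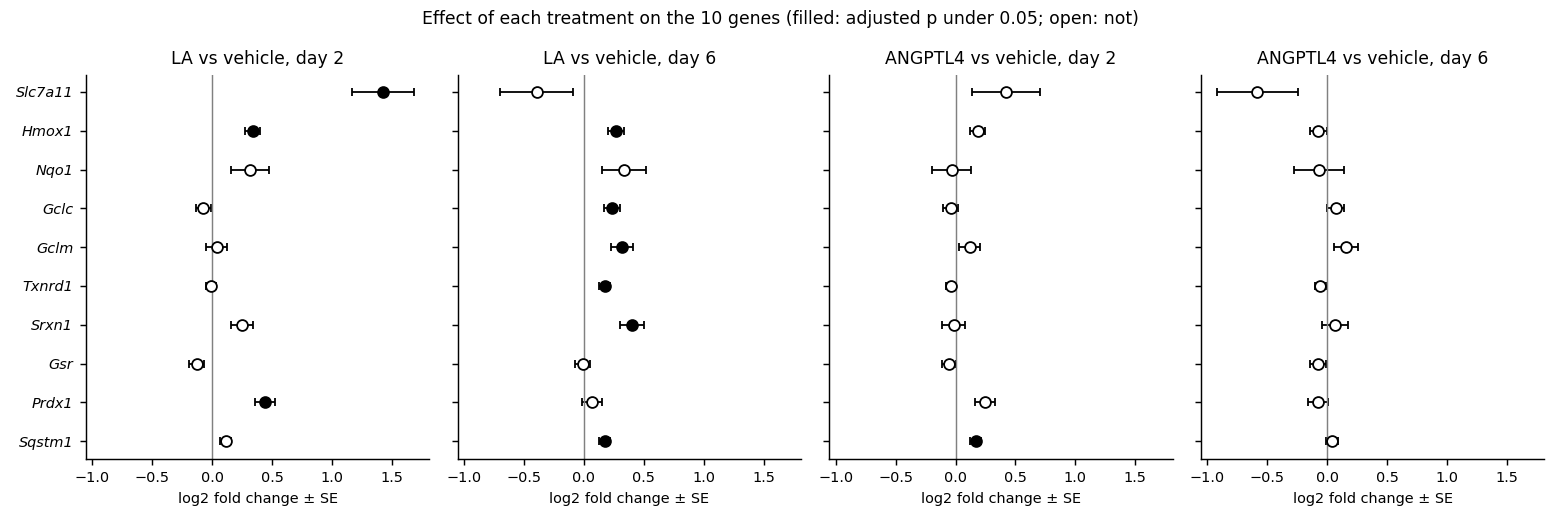
Log2 fold change against vehicle (horizontal axis, bars show the SE) of the 10 genes (vertical axis) for LA and ANGPTL4 at day 2 and day 6. Filled points passed an adjusted p under 0.05: Slc7a11, Hmox1 and Prdx1 with LA at day 2, 6 genes with LA at day 6, and Sqstm1 with ANGPTL4 at day 2.

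Muscle and fibroblast marker genes also differed between these groups at day 6, where 7.83% of all genes were called higher and 9.38% lower. Of 10 myogenic markers 8 fell with LA and 1 rose, and their summed level was 9403 to 10456 CPM with LA against 13225 to 13802 with vehicle. Of 7 fibroblast markers tested 4 rose, and the 8 in the table summed to 12429 to 14980 CPM against 10367 to 12008. Macrophage markers were near the floor in both groups, with 6 of 8 in the table, 3 tested, and a summed level of 7.82 to 8.62 CPM with LA and 7.69 to 8.58 with vehicle. Endothelial markers, 3 of 8 in the table, summed to 1.58 to 2.45 CPM with LA. Only Pparg of the 8 adipocyte markers was in the table (7.72 to 8.47 CPM with LA, 5.16 to 6.88 with vehicle), and it rose. In a bulk culture a change in the share of cells of a kind and a change in RNA per cell cannot be told apart, and the part of cell makeup in the rise of the 6 genes was not tested.

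The effects of LA at the 2 days were compared directly as a difference of differences. Of the 10 genes 4 were called, 2 with a larger and 2 with a smaller effect at day 6, beside 8.68% of all genes called higher and 11% lower. Slc7a11 had the largest difference (log2FC -1.82, SE 0.401, adjusted p = 0.00386): it was called higher at day 2 and not called at day 6. Prdx1 likewise had a smaller effect at day 6 (-0.37, adjusted p = 0.0298), while Gclc (0.31, adjusted p = 0.0192) and Txnrd1 (0.18, adjusted p = 0.0365) had a larger one. For Gclm (0.28, adjusted p = 0.119), Srxn1 (0.16, adjusted p = 0.437) and Sqstm1 (0.06, adjusted p = 0.562) the effects at the 2 days were not shown to differ. The median of the 10 differences was 0.09 and their mean -0.11, since Slc7a11 weighs on the mean. The Prdx1 call ended under 10 of the alternatives and that of Txnrd1 under 5; 2 genes were called without vehicle replicate 1 or LA replicate 2 of day 6, or after thinning.

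With ANGPTL4 at day 2 Sqstm1 alone of the 10 genes was called, with 3.86% of all genes called higher and 5.96% lower. It stood at 607, 532, 540.1 and 551 CPM with ANGPTL4 and at 516, 523, 464 and 481 CPM with vehicle, so that no library overlapped (log2FC 0.17, SE 0.048, adjusted p = 0.0245). That call ended under 5 alternatives, among them leaving out vehicle replicate 3 or 4 or ANGPTL4 replicate 1. Hmox1 (49.1, 49.7, 54.3 and 53.0 CPM, log2FC 0.19, adjusted p = 0.0506) and Prdx1 (log2FC 0.25, adjusted p = 0.0620) lay above vehicle in all 16 pairs and missed the threshold. Slc7a11 had the highest log2FC of the 10, 0.42 (SE 0.280, adjusted p = 0.362), at 6.98, 7.03, 8.46 and 12.5 CPM, and was above vehicle in 12 of 16 pairs. The median log2FC of the 10 genes was 0.05, beside 0.02 over all genes.

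At day 6 ANGPTL4 changed none of the 10 genes by edgeR's test, none at an unadjusted p under 0.05, and none by DESeq2 or limma-voom. All genes together gave almost no calls either, 0.0154% higher and 0.0077% lower. The log2FC of the 10 genes ran from -0.58 (Slc7a11, adjusted p = 0.533) to 0.16 (Gclm, adjusted p = 0.550), with a median of -0.06 beside -0.0094 over all genes. The difference between the ANGPTL4 effects of the 2 days was called for none of the 10 by edgeR, DESeq2 or limma-voom. By edgeR 3 passed an unadjusted p under 0.05, and among all genes 0.0847% were called higher and 0.192% lower (11 and 25 genes), a balance that was 34 and 22 genes with DESeq2 size factors.

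LA and ANGPTL4 shared their vehicle libraries, so the treatments were also set against each other directly. At day 2 none of the 10 genes was called by edgeR or DESeq2 and 1 by limma-voom, while 5 had an unadjusted p under 0.05 in edgeR. Among all genes 0.0616% were called higher with LA and 0.0308% lower. Slc7a11 had a log2FC of 1.01 (adjusted p = 0.0792) and was higher with LA in 14 of 16 pairs. Without LA replicate 4 there were 4 calls, namely Slc7a11, Nqo1, Srxn1 and Prdx1, all higher with LA, and without ANGPTL4 replicate 4 there was 1, Slc7a11.

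At day 6, 3 of the 10 genes were higher with LA than with ANGPTL4: Hmox1 (log2FC 0.34, adjusted p = 0.000578), Txnrd1 (0.23, adjusted p = 0.000402) and Srxn1 (0.34, adjusted p = 0.0257). Among all genes 6.6% were called higher and 7.32% lower. Hmox1 in the ANGPTL4 libraries was 33.3, 40.4, 32.1 and 34.4 CPM, below each of the 4 LA libraries, and Txnrd1 was 123, 133, 131 and 129.9 CPM. Sqstm1 was higher with LA in all 16 pairs and missed the threshold (log2FC 0.13, adjusted p = 0.0625), which it passed under 7 of 18 alternatives, DESeq2 among them. The Srxn1 call ended under 5 alternatives, and 5 genes were called when only the compared groups were fitted.

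Vehicle cultures also differed between the days. From day 2 to day 6, 4 of the 10 fell and 1 rose, where 25.2% of all genes were called higher and 20.5% lower. Gclc fell from 65.1 ± 4.33 to 44.7 ± 0.90 CPM (SD, n = 4; log2FC -0.54, SE 0.067, adjusted p = 5.83e-08). Txnrd1 fell from 176 ± 5.00 to 134 ± 5.40 CPM (log2FC -0.39, adjusted p = 1.24e-08) and Hmox1 from 45.3 ± 2.33 to 37.0 ± 1.62 CPM (log2FC -0.29, adjusted p = 0.000499). In each of these 3 genes every day 6 library was below every day 2 library. Gsr fell less (log2FC -0.17, adjusted p = 0.0288) and Sqstm1 rose (0.13, adjusted p = 0.0270), but the Sqstm1 call ended under 12 of 18 alternatives and the Gsr call under 3. The LA libraries of day 6 lay between: Gclc was 52.6 ± 3.42 and Txnrd1 152 ± 8.35 CPM, above vehicle of day 6 and below all groups of day 2.

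Ordered by mean level, the 6 groups of Slc7a11, Gclm, Srxn1, Gsr and Prdx1 formed a run in which each group overlapped the next. Gclc and Txnrd1 separated by day, with no overlap between the lowest day 2 group and LA of day 6, and in Txnrd1 LA of day 6 was also clear of the next group, vehicle of day 6. Nqo1 had a gap between ANGPTL4 of day 2 and vehicle of day 6, but this held for these neighbours only. An LA library (3.07 CPM) and a vehicle library (3.45 CPM) of day 2 lay below every vehicle library of day 6. Sqstm1 was highest by mean with LA at day 6 (612 ± 14.1 CPM), with no overlap with the next group, ANGPTL4 of day 6 (558 ± 13.9). LA of day 6 did overlap ANGPTL4 of day 2, where replicate 1 stood at 607 CPM, above the lowest LA library (591 CPM). Hmox1 separated at 2 places, between ANGPTL4 and vehicle at day 2 and between LA and vehicle at day 6. Gsr had the smallest range, with 1.19-fold between its highest and lowest group mean, and Slc7a11 the largest, 3.01-fold.

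The regulators were described from 10 genes. Nfe2l2, Keap1 and Bach1 were called in no comparison of a treatment with vehicle. With LA at day 2 their log2FC were -0.09, 0.18 (adjusted p = 0.0724) and 0.08, and at day 6 they were 0.10, -0.15 (adjusted p = 0.165) and -0.20 (adjusted p = 0.0688). Bach1, the repressor, was lower than vehicle in all 16 pairs at day 6 both with LA (97.3 CPM on average against 111.8) and with ANGPTL4 (100.7 CPM), and was called in neither. With ANGPTL4 at day 2 the 3 genes had log2FC of 0.04, 0.14 and -0.10, and at day 6 of 0.06, -0.05 and -0.15. Cul3, the ubiquitin ligase scaffold that works with KEAP1, fell with LA at day 2 (log2FC -0.21, adjusted p = 0.00736), and its partner Rbx1 rose (0.20, adjusted p = 0.0414). Rbx1 was also called higher with ANGPTL4 at day 2 (0.21, adjusted p = 0.0466). DESeq2 called 1 of the 10 regulators with LA at day 2 and none with ANGPTL4 at that day. The small MAF gene Mafk (-0.31, adjusted p = 0.000778) and Nfe2l1, an NRF2 relative (-0.22, adjusted p = 0.00310), fell with LA at day 6. By edgeR the effect of LA differed between the days for 3 of the 10 regulators, all lower at day 6. They were Keap1 (-0.33, adjusted p = 0.0183), Mafk (-0.42, adjusted p = 0.00172) and Nfe2l1 (-0.21, adjusted p = 0.0435). DESeq2 called 2 of the 10, and among all genes edgeR called 8.68% higher and 11% lower. The protein amount and location of NRF2 cannot be read from transcript counts. Between the days in vehicle, Keap1 rose (0.32, adjusted p = 0.000365) and Nfe2l2 fell (-0.17, adjusted p = 0.0266).

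Of 11 other NRF2 targets tested, 8 rose with LA at day 6 and none fell. Among all genes 7.83% were called higher and 9.38% lower in that comparison. The shares were 8.27 and 6.82% with LA at day 2, and 3.86 and 5.96% with ANGPTL4 at day 2. They stand beside the counts of the following lists too. Aldh3a1, an aldehyde dehydrogenase that clears lipid aldehydes, rose from 8.12 ± 1.59 to 20.9 ± 4.77 CPM (log2FC 1.35, adjusted p = 5.21e-08). Ephx1, a microsomal epoxide hydrolase, rose from 94.5 ± 7.43 to 144 ± 5.02 CPM (0.61, adjusted p = 4.21e-08), and Aox1, aldehyde oxidase, had 0.56 (adjusted p = 1.79e-05). At day 2, 3 of the 11 rose with LA, among them Pir (0.50) and Esd (0.34), and 3 rose with ANGPTL4, where DESeq2 called 1. The difference between the days was called for 3 of the 11, all larger at day 6, beside 8.68% of all genes called higher. The shift of myogenic and fibroblast markers given above was in the same LA libraries of day 6, and its part in the day 6 counts of this and the following lists was not tested.

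Genes of glutathione supply and use were split. At day 6 of LA 8 of 29 rose and 2 fell, with a median log2FC of 0.02. The 3 with the largest changes by the naming rule were glutathione transferases: Mgst1 (8.16 ± 0.781 to 18.8 ± 3.08 CPM, log2FC 1.20, adjusted p = 1.69e-08), Gstm1 (0.97, adjusted p = 5.10e-05) and Gsta4 (0.75, adjusted p = 1.82e-06), the last known for its action on 4-hydroxynonenal, a product of omega-6 fatty acid peroxidation. At day 2, 8 of 29 rose and none fell, led by Gstm2 (0.57, adjusted p = 0.00211). Members of the Gstm family are close in sequence, so their separate values are uncertain. With ANGPTL4 at day 2, 2 of 29 rose, Mgst3 (0.43) and Glrx3 (0.30).

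In the thioredoxin and peroxiredoxin list 6 of 18 genes rose with LA at day 2 and 1 fell, led by Txn1, thioredoxin itself (130.5 ± 7.30 to 179 ± 26.04 CPM, log2FC 0.47, adjusted p = 0.00161), and Prdx5 (0.42, adjusted p = 0.00532). At day 6, 2 of 18 rose and 1 fell. Prdx4, the peroxiredoxin of the endoplasmic reticulum, was called higher with LA at both days (0.32 and 0.55) and with ANGPTL4 at day 2 (0.30), where 4 of 18 rose by edgeR and DESeq2 called 2. Ribosomal protein genes moved in the same libraries at day 2, as given above, and their part in these counts was not tested.

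NADPH feeds both the glutathione and the thioredoxin systems. With LA at day 6, 5 of 13 genes of NADPH supply rose and none fell, among them G6pdx, which encodes the first enzyme of the pentose phosphate pathway (29.4 ± 4.00 to 38.9 ± 2.36 CPM, log2FC 0.41, adjusted p = 0.00262), Tkt (0.26, adjusted p = 0.00200) and Idh1 (0.22, adjusted p = 0.00322). At day 2, 2 of 13 rose and 1 fell with LA. Under ANGPTL4 at day 2, 2 of 13 rose, Pgls (0.31) and Taldo1 (0.17), where DESeq2 called 1. In vehicle between the days, 6 of 13 fell and 2 rose, where 20.5% of all genes were called lower and 25.2% higher.

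Of the heme and iron genes, 4 of 16 rose with LA at day 2, and 1 rose and 1 fell at day 6. Under ANGPTL4 at day 2, 3 of 16 rose, Blvrb (0.56), Ncoa4 (0.22) and Fth1 (0.21), where DESeq2 called 2. Slc48a1, a heme transporter, was called higher with LA at both days (0.25 and 0.28). Ftl1, ferritin light chain, had a log2FC of 0.73 at day 2 (adjusted p = 0.00412), but it has near-identical copies and its value is uncertain. Cat, catalase, rose with LA at day 6 (0.34, adjusted p = 5.10e-05), 1 of 5 in its list, and Sod1 rose at day 2 (0.39, adjusted p = 0.00477).

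ATF4 targets were read beside Slc7a11. With LA 3 of 20 rose at day 2, Phgdh (0.27), Pck2 (0.21) and Atf4 itself (0.17, adjusted p = 0.0412), where DESeq2 called 1 of the 20, and 4 of 20 rose at day 6, when Slc7a11 was not called. The median log2FC of the list was 0.05 at day 2 and 0.08 at day 6. Phgdh was also called higher with ANGPTL4 at day 2 (0.30, adjusted p = 0.0132), alone of the 20. In vehicle between the days 10 of 20 fell and 1 rose, where 20.5% of all genes were called lower and 25.2% higher. Sqstm1 was also set beside 11 autophagy receptor and LC3 family genes. With LA 4 of them rose and 1 fell at day 2, with Gabarapl2 (0.51), Map1lc3a (0.40) and Gabarapl1 (0.26) among the risen, and at day 6 none rose and 2 fell, Map1lc3a (-0.35) and Tollip (-0.25). With ANGPTL4 at day 2 Map1lc3b rose (0.23) and Wdfy3 fell (-0.27).

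None of these 9 lists had a called gene with ANGPTL4 against vehicle at day 6 in edgeR's test or in limma-voom. Of their 129 tested genes 16 passed an unadjusted p under 0.05 in edgeR, and DESeq2 called 3. With LA against vehicle 36 of the 129 (27.9%) were called in either direction at day 2, where 15.1% of all genes were, and 37 (28.7%) at day 6, where 17.2% were. With ANGPTL4 at day 2 it was 18 (14%), beside 9.82% of all genes. DESeq2 called 32, 36 and 12 of the 129 in these 3 comparisons. The lists were chosen with earlier results of these data known, so these shares cannot show an excess over all genes.

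**Figure D4:**
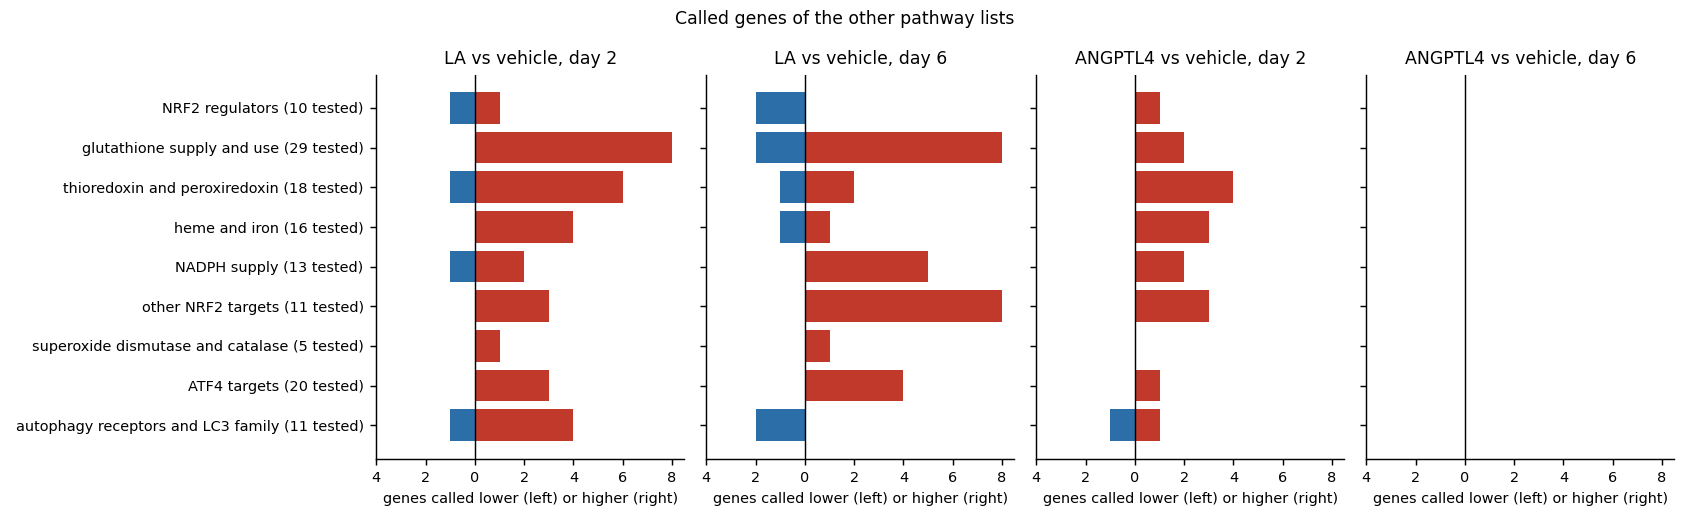
Number of genes called lower (left of 0, blue) and higher (right of 0, red) in 9 lists of related genes (vertical axis, with the number tested), for LA and ANGPTL4 against vehicle at each day. Other NRF2 targets reach 8 of 11 called higher with LA at day 6, and no list has a call with ANGPTL4 at day 6.

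Likeness over the 24 libraries was described by Pearson's r of log2 CPM, without a test, since libraries of a group share their condition. The r within groups, after removal of each group's mean, is given for all genes listed with Slc7a11, Prdx1 and Hmox1. For each other member it is given for the first listed gene. The 3 genes most like Slc7a11 were Snrpd2 (r = 0.94), Rps20 (0.94) and Rplp1 (0.93), with 0.87 to 0.89 within groups, and those most like Prdx1 were Rpl10 (0.90), Rpl9 (0.89) and Rps4x (0.89), with 0.85 to 0.95 within groups, so ribosomal protein genes filled 5 of these 6 places. Gclc was most like Pi15 (0.95), Dipk2a (0.94) and Asns (0.93), and Txnrd1 most like Zfp704 (0.97), Plxdc2 (0.96) and Sh3pxd2b (0.96). Hmox1 was most like Ttyh3 (0.92), Kbtbd11 (0.91) and Id3 (0.90), but with 0.23, 0.37 and 0.06 within groups, and Sqstm1 most like Itm2b (0.86), Trafd1 (0.85) and Bsg (0.85). The likeness was weaker for Srxn1 (Aldh2, 0.79, Ptgfr, 0.77, and Prdx4, 0.77) and Gclm (Erlin1, 0.79, Aspn, 0.76, and Pls3, 0.74). It was also weaker for Gsr (Lmf1, 0.78, Cars, 0.77, and Ruvbl2, 0.76) and Nqo1 (Eef1akmt2, 0.71, Timm10b, 0.71, and Arl14ep, 0.69). Within groups, the first listed gene had an r of 0.80 for Srxn1, 0.72 for Gclm, 0.62 for Gsr and 0.74 for Nqo1. That r was 0.52 for Gclc, 0.59 for Txnrd1 and 0.53 for Sqstm1, so the order over the 24 libraries did not hold within groups.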

How the data were processed

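The deposited table held raw counts per gene symbol for 24 libraries, made with a QuantSeq 3′ kit from total RNA of integrity above 7 (per the labels' protocols). The submitters' processing notes name Trimmomatic, STAR 2.7.1a, HTSeq 0.9.1, DESeq2, DESeq and mm39, without roles or settings, so strand and multi-mapping rules were not given in the sources used here. Columns were matched to samples by name; those marked E18 with a day and number were read as the linoleic acid (18:2) samples, since no other sample title holds 18, which is an inference. The lowest total of a gene was 51 counts.

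Counts were tested as deposited with edgeR 4.0.16 in R 4.3.3: filterByExpr (1699 genes removed), TMM scaling, and 1 robust quasi-likelihood model of 6 group means with 18 residual degrees of freedom, Benjamini-Hochberg adjustment over all genes tested. SE is the log2 fold change over the root of its F statistic, and is approximate. The test was tried on simulated counts first. Named genes were the 10 members everywhere, Nfe2l2, Keap1 and Bach1 for the treatments, Angptl4 as a label check, up to 3 called genes per list with the largest change and at least 5 CPM, of which examples are printed, and the 3 genes most like each member. Members and lists were chosen with earlier results of these data known. No 2 libraries agreed within counting noise. Alternatives were other scalings, filters and tools (limma-voom 3.58.1, DESeq2 1.42.0), a replicate block, thinning, and leaving out libraries. No genome of mm39 was used here; promoter sequences come from RefSeq for GRCm38.p6.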

Additional observations from a re-analysis of the deposited data

Results flagged for a closer look

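In 4 groups of values a single library lay far from the other 3 of its group by Dixon's test, among 60 groups of values tested. Chance alone flags about 1 in 20 groups. Slc7a11 was 7.87 CPM and Gclc 72.3 CPM in LA replicate 4 of day 2, the lowest and the highest of that group. Txnrd1 was 142.5 CPM in vehicle replicate 3 of day 6, and Gsr was 35.7 CPM in ANGPTL4 replicate 2 of day 6, each the highest of its group.

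The effect of LA differed between the days for 4 genes by edgeR's test of the difference itself. The log2 fold change at day 6 minus that at day 2 was -1.82 for Slc7a11, -0.37 for Prdx1, 0.31 for Gclc and 0.18 for Txnrd1.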

How the results depend on the processing

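Of the values of single genes under the alternatives, 1699 stayed on their side of the threshold, 46 lost a call and 27 gained one, and no called value changed sign. With only the compared groups fitted, the number of the 10 genes called was 1 for LA against vehicle at day 2 (3 with all groups), 0 for ANGPTL4 at day 2 (1) and 5 for LA against ANGPTL4 at day 6 (3). For ANGPTL4 at day 2 it was 3 with library totals alone, 3 with limma-voom, 0 after thinning and 2 without the 2 libraries that stood apart. For LA against ANGPTL4 at day 2 it was 1 with limma-voom (0). After thinning it was 3 for vehicle between the days (5) and 2 for the difference of LA effects (4). The cause of these changes was not tested. Leaving out 1 library at a time gave 3 to 5 genes for LA at day 2, 4 to 6 for LA at day 6, 0 to 2 for ANGPTL4 at day 2, 0 to 4 for LA against ANGPTL4 at day 2, 2 to 3 at day 6, 4 to 5 for vehicle between the days and 2 to 4 for the difference of LA effects.

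With the replicate number as a replicate block, 3 genes were called for LA at day 2, 6 for LA at day 6 and 1 for ANGPTL4 at day 2, the same counts as without it. Same-numbered libraries correlated at -0.17 to 0.14 in their deviations, and 4 of 16 treated libraries were closest to their own number, so the numbers were not taken to pair libraries.

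Counts over all genes moved more. For LA at day 2 they were 1961, but 422 with only the compared groups and 632 without LA replicate 3. For ANGPTL4 at day 2 they were 1276, but 685 with only the compared groups and 712 without vehicle replicate 4. For ANGPTL4 at day 6 there were 3, with a range of 0 to 87 (DESeq2), for LA against ANGPTL4 at day 2 there were 12, with a range of 6 to 363 (without LA replicate 4), and for the difference of ANGPTL4 effects 36, with a range of 0 to 381 (DESeq2). Scaling by library totals alone moved the share of calls that were higher from 54.8 to 68.2% for LA at day 2, from 45.5 to 59.1% for LA at day 6, from 39.3 to 54.2% for ANGPTL4 at day 2 (27.1% with DESeq2 size factors) and from 47.4 to 62.9% for LA against ANGPTL4 at day 6. For vehicle between the days it moved that share from 55.2 to 46.4%, and for the difference of ANGPTL4 effects from 30.6 to 17.4% (60.7% with DESeq2 size factors). Nqo1 had 23 to 170 counts a library, which limits its precision.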
